A study of Mus musculus with 9 samples.

Results

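The glucose transporter gene *Slc2a1* and the glycolysis enzyme genes *Pfkl*, *Pgk1* and *Pgam1* were followed across 3 populations of sorted mouse stromal cells. They and the lists used below were chosen by name with earlier results of these data known. Shares of all genes called are therefore given beside them as a background and not as a test. The table of expression values holds the 4 genes among 8329. All libraries came from WT mice of the C57BL/6J strain, and the labels name no transgene or drug in any group. Mesenchymal stem cells of the marrow (BM-MSCs) and periosteal skeletal stem cells (P-SSCs) were sorted at steady state, which the labels call day 0. Graft P-SSCs were sorted 3 days after a whole adult femur had been placed under the skin of a recipient mouse. The study sorted CD45-Ter119-CD31-CD51+CD200+ cells, a gate meant to leave out white blood, erythroid and endothelial cells. RNA of white blood and erythroid markers was still present, most of all in BM-MSCs, and is given below. Polyadenylated RNA from small numbers of cells was sequenced in 3 libraries per group. The replicates held different mice, and in some the RNA of more than 1 mouse was combined. The spread between libraries of a group is therefore a spread between mice or small pools of mice. The comparison of P-SSCs with BM-MSCs asked how the populations differ at rest, and that of graft with steady-state P-SSCs asked what had changed early after transplantation.

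Glycolysis turns glucose into pyruvate in the cytosol and yields ATP without oxygen. *Slc2a1* encodes GLUT1, which lets glucose into the cell. *Pfkl* encodes the liver-type subunit of phosphofructokinase, the enzyme of the committed step. *Pgk1* encodes phosphoglycerate kinase, which makes the first ATP of the pathway's payoff phase, and *Pgam1* encodes phosphoglycerate mutase, which catalyses the next step. Several genes of the pathway are known targets of the hypoxia-inducible factor HIF-1. Values are FPKM, in which a gene's fragments are divided by its length and by the size of the library, so that levels of different genes can be set beside each other.

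In GRCm38 coordinates of the table, *Slc2a1* (ENSMUSG00000028645) lies on the plus strand of chromosome 4 from 119108711 to 119137983, and *Pfkl* (ENSMUSG00000020277) on the minus strand of chromosome 10 from 77986947 to 78010083. *Pgk1* (ENSMUSG00000062070) lies on the plus strand of chromosome X from 106187100 to 106203699, and *Pgam1* (ENSMUSG00000011752) on the plus strand of chromosome 19 from 41911871 to 41918664. All 4 are protein-coding, and their values count fragments over exons. Reads shared with other genes could touch *Slc2a1* and *Pgk1*, as described next. Of 12 listed copies and relatives of the 4 genes, *Pgk1-rs7* was the 1 analysed, so shared reads of *Pfkl* and *Pgam1* could not be checked. *Gm12868*, an antisense gene not analysed here, shares 105 exon bases with *Slc2a1* in GENCODE M21, and whether the counting used strand is not given in the sources used here. *Pgk1-rs7*, a near-identical copy of *Pgk1*, was at 0.0472 to 0.131 FPKM in BM-MSCs, 0.121 to 0.179 in P-SSCs and 0.976 to 1.38 in graft P-SSCs. These levels were small beside those of *Pgk1*, but reads could be split between the copies.

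Depth was similar in all libraries, but more genes of the table were above 0 in grafts. They numbered 2771 to 2829 in a graft library, 2304 to 2521 in BM-MSCs and 2231 to 2466 in P-SSCs. The totals by which the values were scaled ranged from 16890241 to 21315438 fragments, and the members' values rested on 328 to 14090 fragments per kilobase. The lowest was *Pfkl* in P-SSC replicate 3. That library stood apart from the other steady-state P-SSCs: without it, 892 genes were called between graft and steady-state P-SSCs in place of 665. Each change of a member against steady-state P-SSCs or between P-SSCs and BM-MSCs is therefore also given without it. All 4 genes were among the 1948 that had at least 1 FPKM in at least 3 of the 9 libraries and were tested with limma on log2(FPKM + 1). Of the genes written down as markers of the sorted stromal cells, *Postn* was the 1 analysed of 14, at 90.6 to 124.7 FPKM in BM-MSCs, 390.5 to 476.4 in P-SSCs and 782.2 to 879.1 in graft P-SSCs. The sort markers *Itgav* (CD51) and *Cd200* were not analysed here, so the labelled cell type could not be checked against them. The white blood cell marker *Ptprc* (CD45), against which the cells were sorted, was at most 1.35 FPKM in every library. Not all white blood cell markers were low. *Lyz2* was at 143 to 608 FPKM in BM-MSCs and *Mpo* at 292 FPKM in BM-MSC replicate 1, while *Cd79b*, *Csf1r* and *Adgre1* were at most 7.18 FPKM.

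The bases just before the RefSeq starts of these genes are shown because all 4 rose in the grafts in the data that follow, and *Pfkl* differed from the others at steady state. They were read from RefSeq on GRCm38.p6, on the strand of the gene and from its 5′ side, and bases inside a GENCODE M21 exon of the gene were left out. For *Pgk1* and *Pgam1* the stretch ends 1 base before the gene span of the table, and for *Slc2a1* it also ends there, ahead of a RefSeq start that lies inside the span. For *Pfkl* the RefSeq start lies further inside the span, so its stretch is downstream of the outermost annotated start, and its letters cannot be set directly beside those of the others. The stretches are chr4:119108495-119108710 for *Slc2a1*, chrX:106186850-106187099 for *Pgk1*, chr19:41911621-41911870 for *Pgam1* and chr10:78009808-78010004 for *Pfkl*. Capitals mark ACGTG or GCGTG on either strand, the core letters of the element that HIF-1 is known to bind.
Slc2a1: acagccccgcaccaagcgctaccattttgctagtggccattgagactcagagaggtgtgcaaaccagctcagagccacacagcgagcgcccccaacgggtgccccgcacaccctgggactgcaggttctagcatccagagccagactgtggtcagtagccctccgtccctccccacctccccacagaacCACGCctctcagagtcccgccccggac
Pgk1: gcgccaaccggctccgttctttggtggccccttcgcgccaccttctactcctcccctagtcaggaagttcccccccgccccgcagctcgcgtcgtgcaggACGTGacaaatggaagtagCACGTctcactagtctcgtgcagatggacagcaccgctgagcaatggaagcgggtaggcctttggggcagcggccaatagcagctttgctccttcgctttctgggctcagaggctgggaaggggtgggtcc
Pgam1: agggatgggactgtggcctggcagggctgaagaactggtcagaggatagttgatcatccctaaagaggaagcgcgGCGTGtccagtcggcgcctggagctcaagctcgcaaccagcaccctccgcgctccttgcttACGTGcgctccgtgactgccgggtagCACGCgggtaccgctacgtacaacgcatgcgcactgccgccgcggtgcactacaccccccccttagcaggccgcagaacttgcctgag
Pfkl: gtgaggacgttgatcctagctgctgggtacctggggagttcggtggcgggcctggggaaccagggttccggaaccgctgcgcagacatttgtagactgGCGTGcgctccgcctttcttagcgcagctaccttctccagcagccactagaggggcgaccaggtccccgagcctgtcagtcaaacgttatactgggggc
The *Pgk1* stretch holds ACGTG at 2 places, 150 and 131 bases before the start. The *Pgam1* stretch holds 3 matches, the *Pfkl* stretch 1, and the *Slc2a1* stretch 1 with another at 36 to 32 bases before the start, which the end of the printed letters cuts and which is not capitalised. One or both sets of letters occur in 38.6% of 32851 mouse promoter windows of 250 bases, and 3 or more matches in 6.58%. The windows overlap no measurement of binding, and a match is a run of letters and nothing more.

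At steady state, *Pfkl* was far lower in P-SSCs than in BM-MSCs, and no difference was called for *Slc2a1*, *Pgk1* or *Pgam1*. *Pfkl* was at 186, 221 and 142 FPKM in BM-MSC replicates 1, 2 and 3, and at 22.3, 25.1 and 17.3 FPKM in those of P-SSCs. Each BM-MSC library was several times above each P-SSC library. The means were 183 ± 39.8 FPKM (SD, n = 3) and 21.6 ± 3.98 FPKM (SD, n = 3), 8.49-fold lower in P-SSCs. On the log2(FPKM + 1) scale *Pfkl* fell by 3.02 (SE 0.20, 95% interval -3.47 to -2.57, adjusted p = 5.47e-06 from limma). Only 53 of the 1948 genes fell further, and without P-SSC replicate 3 the change was -2.88.

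*Slc2a1* was at 38.6, 32.4 and 27.8 FPKM in BM-MSCs and at 36.8, 32.7 and 24.1 FPKM in P-SSCs. The groups overlapped, with means of 32.9 ± 5.44 and 31.2 ± 6.48 FPKM (SD, n = 3 each). The log2 difference of *Slc2a1* was -0.085 (95% interval -0.52 to 0.35, adjusted p = 0.818 from limma), and without P-SSC replicate 3 it was 0.084. *Pgk1* was at 63.8, 69.2 and 78.2 FPKM in BM-MSCs and at 72.6, 75.7 and 65.5 FPKM in P-SSCs. These groups overlapped as well, with means of 70.4 ± 7.27 and 71.3 ± 5.22 FPKM (SD, n = 3 each). The log2 difference of *Pgk1* was 0.020 (95% interval -0.29 to 0.33, adjusted p = 0.941 from limma), and 0.078 without P-SSC replicate 3. The intervals leave room for differences of these sizes in either direction.

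*Pgam1* was at 46.1, 45.4 and 45.3 FPKM in BM-MSCs and at 57.4, 66.1 and 53.8 FPKM in P-SSCs. The 3 P-SSC libraries lay above the 3 BM-MSC libraries, by a small margin. The means were 45.6 ± 0.432 and 59.1 ± 6.36 FPKM (SD, n = 3 each), a log2 difference of 0.36 (SE 0.14, 95% interval 0.051 to 0.67). With an adjusted p of 0.0924 from limma *Pgam1* was not called, but without P-SSC replicate 3 the difference was 0.43 with an adjusted p of 0.0408 from limma. Of the 4 genes, then, 1 was called in this comparison, against 24.2% of all genes tested, of which 14.4% were lower and 9.8% higher in P-SSCs, and for 2 of the 4 the libraries did not overlap, against 32.1%.

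**Figure D1:**
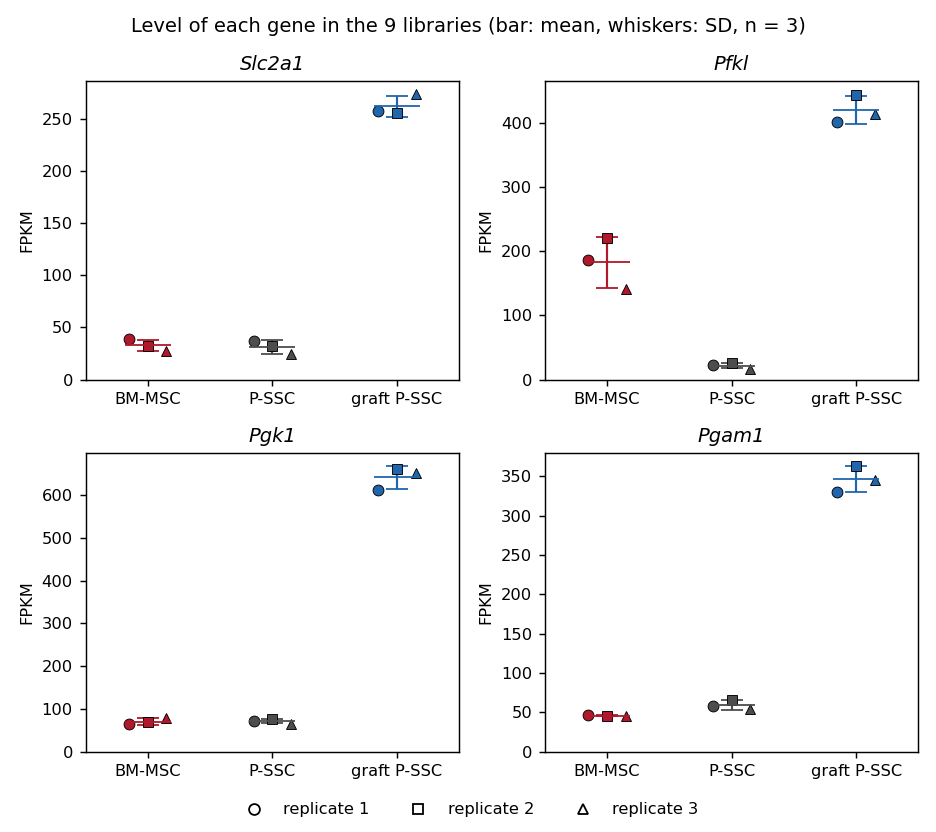
FPKM of *Slc2a1*, *Pfkl*, *Pgk1* and *Pgam1* in each of the 9 libraries, on linear axes from 0, with the mean (bar) and SD (whiskers) of the 3 libraries of BM-MSCs, P-SSCs and graft P-SSCs. All 4 genes were highest in the grafts, and *Pfkl* was the gene with a high level in BM-MSCs, at 142 to 221 FPKM, and a low level in P-SSCs, at 17.3 to 25.1 FPKM.

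In bulk RNA, more cells of a type and more RNA per cell cannot be told apart. The summed blood cell markers and the 1 adipocyte marker analysed were, like *Pfkl*, lower in P-SSCs than in BM-MSCs. Of 10 erythroid markers 2 were analysed, *Hba-a2* and *Bpgm*, and their summed level was 651.6 to 2262.9 FPKM in BM-MSCs, 17.6 to 34.6 in P-SSCs and 17.0 to 22.9 in graft P-SSCs. Of 19 white blood cell markers 6 were analysed (*Ptprc*, *Lyz2*, *Mpo*, *Cd79b*, *Csf1r* and *Adgre1*), with sums of 444.6 to 616.8, 14.5 to 72.3 and 33.5 to 93.7 FPKM. *Ptprc* was at 0 in the 3 P-SSC libraries, and *Mpo* was at 292 FPKM in BM-MSC replicate 1 and at 0 in the other BM-MSC libraries. The 1 adipocyte marker analysed of 7, *Lpl*, was at 589.7 to 939.2, 95.8 to 163.9 and 13.4 to 16.9 FPKM. With 1 gene, RNA of adipocytes cannot be told apart from *Lpl* RNA of the sorted cells themselves. Of 13 skeletal muscle markers, *Atp2a1* and *Myl1* were analysed, with sums of 0 to 4.17, 2.596 to 12.2 and 0.0677 to 0.807 FPKM. None of the 11 endothelial and none of the 11 osteoblast and chondrocyte markers was analysed here. *Pfkl* was lowest among the BM-MSC libraries in replicate 3, at 142 FPKM, where *Hba-a2* was highest, at 2200.5 FPKM against 748 and 618. The part of cells other than the sorted ones in the level of *Pfkl* was not tested. Between steady-state and graft P-SSCs the erythroid and the white blood cell sums overlapped. In both, the latter sum was mostly *Lyz2*, and 2 macrophage markers of that list were called higher in grafts. *Csf1r* was at 0.248, 0.407 and 0.835 FPKM in P-SSCs and 6.31, 5.93 and 5.57 FPKM in grafts (log2 change 2.23, adjusted p = 0.00431 from limma). *Adgre1* was at 0 in the 3 P-SSC libraries and at 2.75, 0.907 and 2.22 FPKM in grafts (adjusted p = 0.0413 from limma). The adipocyte marker *Lpl* was called lower in grafts (log2 change -2.92, adjusted p = 2.54e-05 from limma), and so was the muscle marker *Myl1* (-1.79, adjusted p = 0.0306 from limma), and the muscle sums did not overlap. The part of these markers' cells in the rise of the 4 genes described next was not tested.

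In graft P-SSCs all 4 genes were far above their steady-state level. The rise was largest for *Pfkl*, whose low level in P-SSCs gave way to 403, 444 and 415 FPKM in the graft libraries. The graft mean of 421 ± 21.5 FPKM (SD, n = 3) was 19.5-fold that of P-SSCs, a log2 change of 4.24 (SE 0.20, 95% interval 3.79 to 4.68, adjusted p = 1.49e-06 from limma). *Pgk1* reached 611, 661 and 652 FPKM, the highest levels of the 4 genes. Its graft mean was 641 ± 26.7 FPKM (SD, n = 3), 8.99-fold that of P-SSCs, with a log2 change of 3.15 (SE 0.14, 95% interval 2.84 to 3.46, adjusted p = 1.16e-06 from limma). *Slc2a1* reached 257, 256 and 274 FPKM. The mean was 262 ± 10.1 FPKM (SD, n = 3), 8.41-fold higher, with a log2 change of 3.05 (SE 0.20, 95% interval 2.61 to 3.49, adjusted p = 5.98e-06 from limma). *Pgam1* reached 330.0, 364 and 346 FPKM. The graft mean of *Pgam1*, 346 ± 16.8 FPKM (SD, n = 3), was 5.86-fold higher, a log2 change of 2.53 (SE 0.14, 95% interval 2.22 to 2.85, adjusted p = 2.63e-06 from limma).

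For none of the 4 genes did the graft and steady-state libraries overlap, and they did not for 50.6% of all genes tested, 31.5% with the grafts higher. The 4 calls stand against 34.1% of genes called in either direction and 22.6% called higher in the grafts. Ranked by the size of the rise, *Pfkl* was number 18 of 1948, *Pgk1* 56, *Slc2a1* 62 and *Pgam1* 100. Genes as a whole moved up by a median of 0.26 on the log2 scale, and above that median the 4 genes rose by 3.98, 2.89, 2.79 and 2.27 in the same order. Median-of-ratios scaling, which brought the median to 0.017, gave 311 genes higher and 302 lower in place of 441 and 224, and quantile normalization gave 312 and 355. Without P-SSC replicate 3 the changes were 4.09 for *Pfkl*, 3.09 for *Pgk1*, 2.88 for *Slc2a1* and 2.47 for *Pgam1*.

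Against BM-MSCs, the graft cells were higher in all 4 genes as well, but least so in *Pfkl*. This comparison shares its graft libraries with the one above and its BM-MSC libraries with the steady-state comparison, so it is not an independent set of values. *Pgk1* was 9.10-fold higher (log2 change 3.17, adjusted p = 2.57e-07 from limma) and *Slc2a1* 7.96-fold (2.97, adjusted p = 4.29e-06). *Pgam1* was 7.60-fold higher (2.90, adjusted p = 4.52e-07). *Pfkl* was 2.30-fold higher, a log2 change of 1.22 (SE 0.20, 95% interval 0.77 to 1.66, adjusted p = 0.00111 from limma), and ranked number 427 of 1948. No library of any of the 4 genes overlapped, against 64.5% of all genes without overlap (40.5% with the grafts higher), 41.9% called and 25.7% called higher. The median of all genes was 0.28 higher in the grafts, and above it *Pfkl* rose by 0.94. Quantile normalization moved the split of all calls from 501 higher and 315 lower to 387 and 405. Median-of-ratios scaling gave 387 and 364. Leaving out P-SSC replicate 3, which enters this comparison through the shared estimate of spread, gave 1038 called genes in place of 816 and kept all 4 calls.

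**Figure D2:**
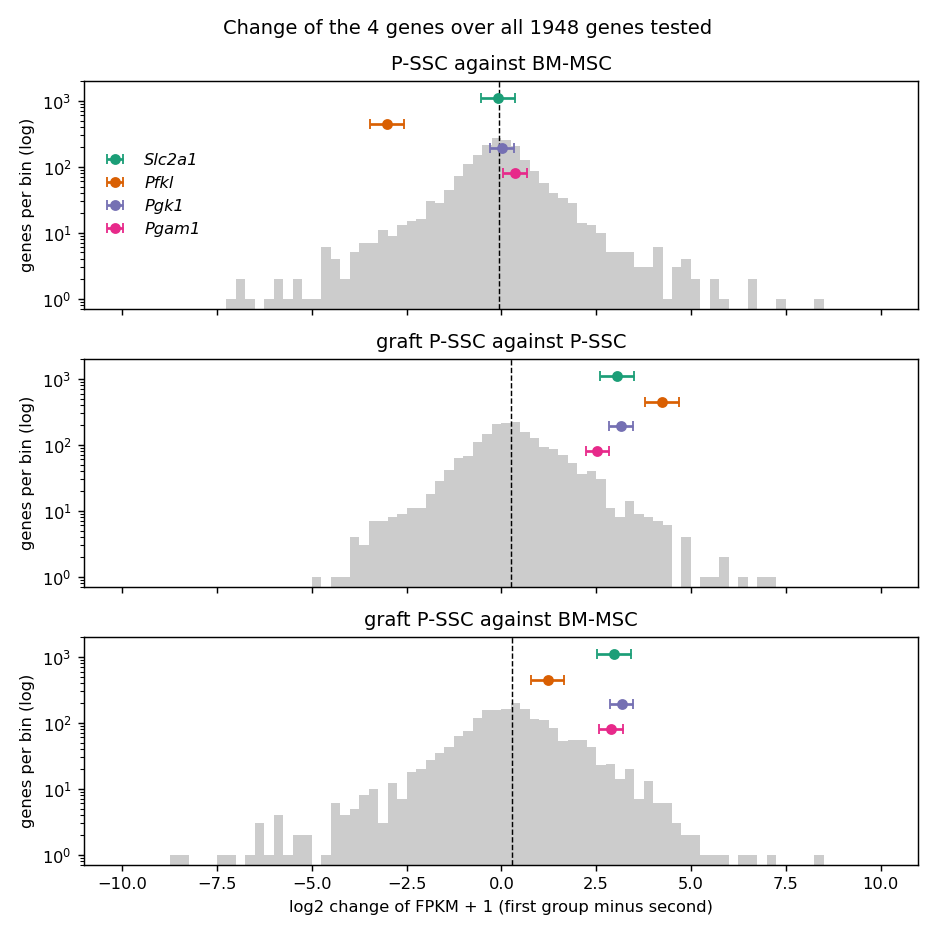
Log2 change of FPKM + 1 for all 1948 genes tested (grey histogram, logarithmic count axis) with the 4 genes as points and their 95% intervals, at arbitrary heights, for the 3 comparisons. The dashed line is the median of all genes. *Pfkl* lies at -3.02, 4.24 and 1.22, and the other genes lie between -0.085 and 0.36 at steady state and between 2.53 and 3.17 in the grafts.

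The order of the 4 genes by FPKM was the same in the 3 libraries of a group and differed between groups. In BM-MSCs it ran from *Pfkl* through *Pgk1* and *Pgam1* to *Slc2a1*. In P-SSCs *Pgk1* was highest, *Pgam1* and *Slc2a1* followed, and *Pfkl* was lowest. In graft P-SSCs *Pgk1* was highest, and then came *Pfkl*, *Pgam1* and *Slc2a1*. Taken over libraries, the ranges of neighbours were apart in BM-MSCs and in grafts. In P-SSCs the range of *Pgk1* overlapped that of *Pgam1*, and the range of *Slc2a1* overlapped that of *Pfkl*. Within a library, the distance from the highest to the lowest gene was 4.82- to 6.84-fold in BM-MSCs, 3.02- to 3.80-fold in P-SSCs and 2.38- to 2.59-fold in grafts.

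The balance of the genes was also taken as the ratio to *Pgk1* inside each library, which does not depend on the scaling of the library. For *Slc2a1* the ratio was 0.476 ± 0.125 in BM-MSCs, 0.435 ± 0.0698 in P-SSCs and 0.409 ± 0.0195 in grafts (SD, n = 3 each). The groups overlapped, and the log2 differences between them were -0.11, -0.077 and -0.19 with exact two-sided permutation p of 0.8, 0.7 and 0.5. For *Pfkl* the ratio went from 2.64 ± 0.731 in BM-MSCs to 0.301 ± 0.0346 in P-SSCs and 0.656 ± 0.0179 in grafts (SD, n = 3 each). The groups did not overlap, and the log2 ratio was 3.10 lower in P-SSCs than in BM-MSCs, a difference of -3.10, and 1.13 higher in grafts than in P-SSCs. For *Pgam1* the ratio was 0.652 ± 0.0716, 0.828 ± 0.0416 and 0.540 ± 0.00977 (SD, n = 3 each), again without overlap, and in grafts *Pgam1* was 0.62 below its steady-state P-SSC ratio on the log2 scale, a difference of -0.62. Each comparison of *Pfkl* and of *Pgam1* gave an exact permutation p of 0.1, the smallest that 3 libraries against 3 allow, and 0.15 after Benjamini-Hochberg adjustment over the 9 comparisons.

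**Figure D3:**
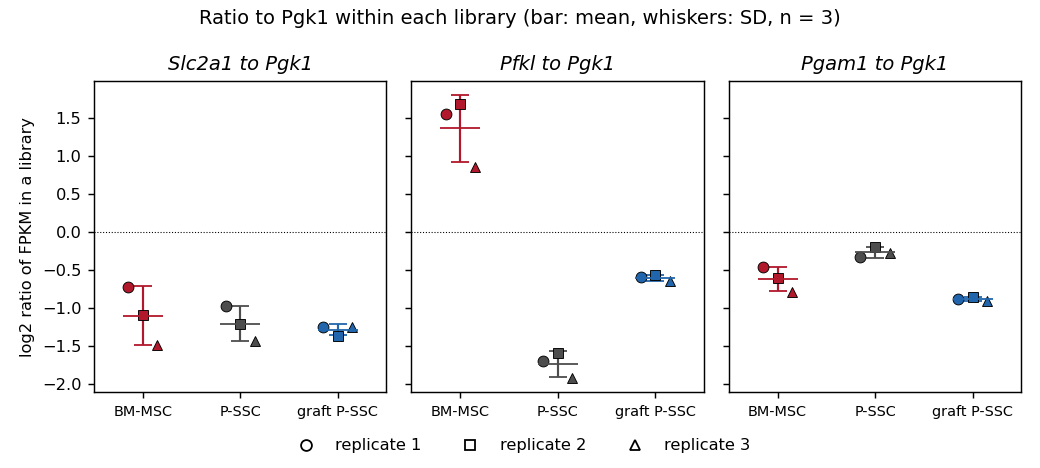
Log2 ratio of *Slc2a1*, *Pfkl* and *Pgam1* to *Pgk1* within each library, with mean (bar) and SD (whiskers) of the 3 libraries per group. A value of 0 means a level equal to that of *Pgk1*. *Slc2a1* stays near 0.4 to 0.5 of *Pgk1* in the means of all groups, and *Pfkl* goes from 2.64 times *Pgk1* in BM-MSCs to 0.301 times in P-SSCs.

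The genes most like each of the 4 across the 9 libraries were taken from the 923 genes that averaged 10 FPKM or more. Likeness was the root mean square difference of log2(FPKM + 1) after each gene was centred on its own mean. *Slc2a1*, *Pgk1* and *Pgam1* were each other's 2 nearest genes, at 0.22 between *Slc2a1* and *Pgk1*, 0.27 between *Pgk1* and *Pgam1* and 0.28 between *Slc2a1* and *Pgam1*. Next for all 3 was *Tmem97*, a sterol-regulated membrane protein, at 0.35, 0.47 and 0.32 from *Slc2a1*, *Pgk1* and *Pgam1*. *Tmem97* had means of 36.3, 38.8 and 185 FPKM in BM-MSCs, P-SSCs and grafts. *Pfkl* was at 1.22, 1.28 and 1.39 from *Slc2a1*, *Pgk1* and *Pgam1*, which made it number 285, 302 and 550 in their lists, while they were number 56, 71 and 111 in the list of *Pfkl*. Its own nearest genes were *Ncaph*, a condensin subunit, at 0.53, *Stmn1*, a regulator of microtubules, at 0.58, and *Mcm5*, a part of the replicative helicase, at 0.64. *Ncaph* had means of 20.2, 1.29 and 37.1 FPKM, *Stmn1* of 80.7, 11.8 and 130.3 FPKM, and *Mcm5* of 61.8, 7.09 and 134 FPKM in BM-MSCs, P-SSCs and grafts. These likenesses are descriptions over libraries that share their groups.

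Other genes of glucose metabolism, its regulators and genes known to be induced by hypoxia were counted with lists of 198 genes, of which 29 were analysed and 23 were tested. The hypoxia list gave 4 of these 23 (*Angptl4*, *Hmox1*, *P4ha1* and *Bnip3l*), and 3 of the 8 that were called higher in grafts than in P-SSCs. Between P-SSCs and BM-MSCs 2 of the 23 were called higher in P-SSCs (*Txnip* and *Pgm3*), 5 lower (*Bpgm*, *Me2*, *Dera*, *Idh2* and *Angptl4*) and 16 not. Their median log2 change was -0.42, beside -0.059 for all genes tested. Between grafts and steady-state P-SSCs 8 were called higher, 3 lower (*Txnip*, *Pdk4* and *Rbks*) and 12 not, with a median of 0.50 beside 0.26. Between grafts and BM-MSCs 7 were called higher, 5 lower (*Bpgm*, *Txnip*, *Pdk4*, *Rbks* and *Bnip3l*) and 11 not, with a median of 0.088 beside 0.28. The shares of all genes called were 24.2%, 34.1% and 41.9%. The steady-state calls of *Txnip* (adjusted p = 0.0305), *Me2* (adjusted p = 0.0189) and *Dera* (adjusted p = 0.0364 from limma) were lost in 6, 4 and 13 of 19 other settings. Between grafts and P-SSCs that of *Rbks* was lost in 10. Between grafts and BM-MSCs 5 of the 12 calls were lost in some settings, those of *Idh2* and *Angptl4* in 7, *Me2* and *Rbks* in 5 and *Bnip3l* in 4.

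Of 25 other glycolysis enzymes, *Bpgm* was the 1 tested. *Bpgm* encodes bisphosphoglycerate mutase, which makes 2,3-bisphosphoglycerate in red cells, and stood among the erythroid markers above. It was at 30.0, 33.6 and 62.4 FPKM in BM-MSCs, 15.5, 14.2 and 14.4 FPKM in P-SSCs and 19.2, 18.6 and 16.5 FPKM in grafts. BM-MSCs were thus highest, and the steady-state and graft P-SSCs were close together. The log2 change of *Bpgm* was -1.38 between P-SSCs and BM-MSCs (adjusted p = 0.00431 from limma) and 0.28 between grafts and P-SSCs (95% interval -0.33 to 0.89, adjusted p = 0.467 from limma).

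Of 13 other glucose transporters, 4 were tested and none was called in any comparison. In each comparison, 24.2% to 41.9% of all genes were. *Slc2a10* was at 31.3 to 49.8 FPKM in BM-MSCs, 26.1 to 46.3 in P-SSCs and 39.0 to 45.8 in grafts, and *Slc2a8*, an intracellular transporter, at 16.3 to 32.3, 8.01 to 49.6 and 21.8 to 23.1 FPKM. The libraries of these groups overlapped. Between grafts and P-SSCs the log2 difference was 0.36 for *Slc2a10* (95% interval -0.21 to 0.92, adjusted p = 0.309 from limma). For *Slc2a8* it was 0.47 (95% interval -0.82 to 1.76, adjusted p = 0.566 from limma), while the mean levels were 22.3 FPKM in both groups. In P-SSCs *Slc2a8* was at 49.6 FPKM in replicate 3 and at 8.01 and 9.39 FPKM in the others. *Slc2a5*, the fructose transporter, and *Slc2a13* were at most 1.38 and 1.52 FPKM. *Slc2a5* was at 0 in the 3 P-SSC libraries, and at an unadjusted p of 0.0473 its lower level there did not pass (adjusted p = 0.142 from limma).

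Among regulators of glycolytic flux, 3 of 25 were tested. *Hif1a*, the oxygen-regulated subunit of HIF-1, was at 13.5, 4.94 and 4.30 FPKM in BM-MSCs, at 1.41, 3.04 and 13.6 FPKM in P-SSCs and at 113, 116 and 113 FPKM in grafts. The graft libraries were far above all others, and P-SSC replicate 3 was the highest of its group. The log2 change of *Hif1a* between grafts and P-SSCs was 4.46 (SE 0.61, adjusted p = 0.000511 from limma), or 5.20 without that library, and 3.90 between grafts and BM-MSCs (adjusted p = 0.000874 from limma). Its protein is governed mainly by degradation, which these data do not measure. *Txnip*, whose product lowers glucose uptake and is known to respond to glucose, moved the other way. It was at 487, 268 and 621 FPKM in P-SSCs, 298, 116 and 146 FPKM in BM-MSCs and 31.1, 40.4 and 43.8 FPKM in grafts. *Txnip* fell by 3.47 between P-SSCs and grafts (SE 0.38, adjusted p = 0.000157 from limma), and only 10 of the 1948 genes fell further. *Vhl*, which marks HIF for degradation, was at 32.1 to 40.7, 17.5 to 49.9 and 40.3 to 42.8 FPKM in BM-MSCs, P-SSCs and grafts and was called in no comparison.

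Of 27 genes that handle pyruvate and lactate, 3 were tested. *Pdk4*, a kinase that shuts pyruvate dehydrogenase, was at 33.0, 24.4 and 29.6 FPKM in BM-MSCs, 37.4, 9.79 and 8.16 FPKM in P-SSCs and 3.80, 2.52 and 2.65 FPKM in grafts. The graft libraries were the lowest, and P-SSC replicate 1 stood with the BM-MSCs. *Pdk4* fell by 1.98 from P-SSCs to grafts (SE 0.49, adjusted p = 0.0114 from limma), and by 1.33 without P-SSC replicate 1. *Pdhb*, a subunit of pyruvate dehydrogenase, had means of 75.7 ± 16.2, 66.3 ± 16.4 and 65.6 ± 4.74 FPKM (SD, n = 3 each) and was called in no comparison. *Me2*, mitochondrial malic enzyme, was at 3.28, 3.17 and 8.40 FPKM in P-SSCs and 31.1, 32.7 and 30.8 FPKM in grafts. *Me2* rose by 2.56 from P-SSCs to grafts (SE 0.35, adjusted p = 0.000524 from limma).

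**Figure D4:**
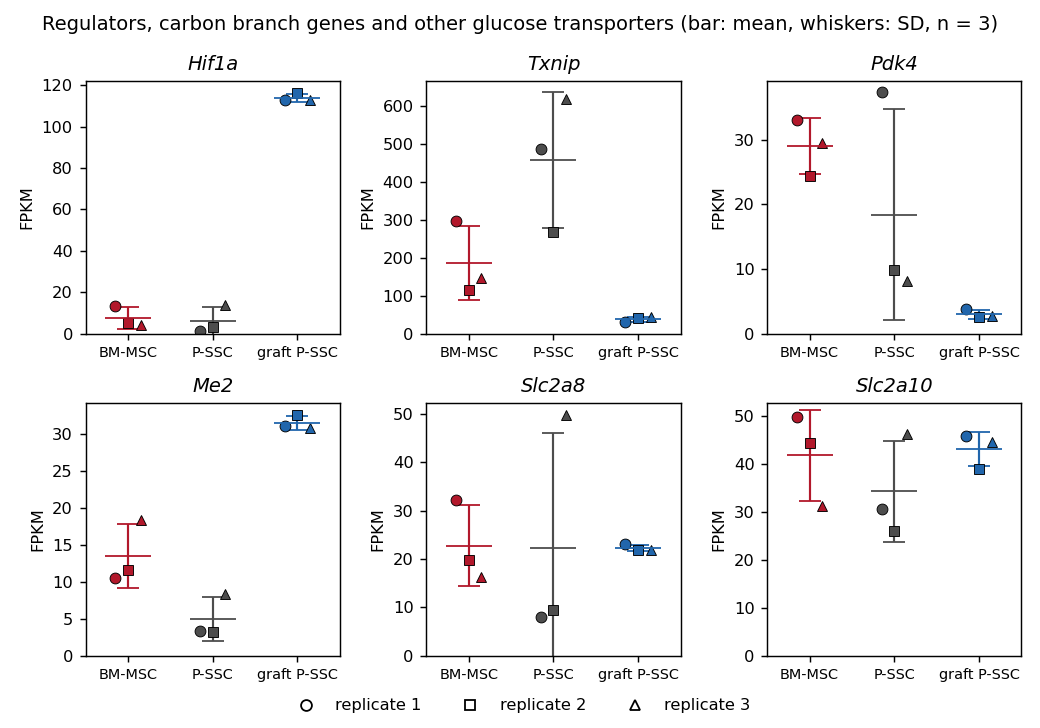
FPKM in the 9 libraries of *Hif1a*, *Txnip*, *Pdk4*, *Me2* and the transporters *Slc2a8* and *Slc2a10*, on linear axes from 0, with mean (bar) and SD (whiskers, which end at the axis where mean minus SD is below 0). *Hif1a* was at 113 to 116 FPKM and *Me2* at 30.8 to 32.7 FPKM in the grafts, above all other libraries, *Txnip* and *Pdk4* were lowest there, and the 2 transporters overlapped between groups.

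In the branches that leave glycolysis, some genes were called and others were not. Of 16 pentose phosphate genes 4 were tested. *Tkt*, transketolase, had means of 133 ± 39.3, 142 ± 40.0 and 120.2 ± 3.22 FPKM (SD, n = 3 each) in BM-MSCs, P-SSCs and grafts, and neither *Tkt* nor *Rpe* was called in any comparison. *Dera* was at 20.3, 30.4 and 15.3 FPKM in P-SSCs and 57.6, 60.9 and 50.5 FPKM in grafts, a rise of 1.37 (SE 0.27, adjusted p = 0.00390 from limma). *Rbks*, ribokinase, named after its values were seen, was called lower in grafts than in P-SSCs at -1.17 (adjusted p = 0.0463 from limma), a call lost in 10 of 19 other settings. *Pgm3*, of the hexosamine branch, was the 1 gene tested of 13 in the serine and hexosamine branches. It was at 18.8 to 20.5 FPKM in BM-MSCs, 28.2 to 36.9 in P-SSCs and 72.4 to 75.5 in grafts, 3 ranges without overlap. Its log2 change was 0.67 between P-SSCs and BM-MSCs (adjusted p = 0.0170 from limma) and 1.21 between grafts and P-SSCs (adjusted p = 0.000576 from limma). Of 27 gluconeogenesis and glycogen genes 2 were analysed, *Pck1* and *Pgm5*, and neither reached the filter.

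Of 23 citric acid cycle genes 3 were tested. *Idh2*, the mitochondrial NADP-dependent isocitrate dehydrogenase, had the same order of groups as *Pfkl*. Several other listed genes had that order by their means, among them *Me2*, *Dera* and *Hmox1*. *Idh2* was at 194, 134 and 125 FPKM in BM-MSCs, 31.0, 41.5 and 81.0 FPKM in P-SSCs and 307, 280.4 and 327 FPKM in grafts. *Idh2* fell by 1.63 between BM-MSCs and P-SSCs (SE 0.32, adjusted p = 0.00397 from limma) and rose by 2.66 from P-SSCs to grafts (adjusted p = 0.000234 from limma). *Sdha*, a subunit of succinate dehydrogenase, was close to level, with means of 452 ± 73.8, 463 ± 50.0 and 447 ± 20.3 FPKM (SD, n = 3 each), and a log2 difference between grafts and P-SSCs of -0.047 (95% interval -0.39 to 0.30). The cytosolic *Idh1* was not called in any comparison.

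Of 33 genes known to be induced by hypoxia 4 were tested, and 3 of them were called higher in grafts than in P-SSCs, against 22.6% of all genes. *Angptl4*, which inhibits lipoprotein lipase, was at 380.4, 312 and 364 FPKM in BM-MSCs, 41.2, 45.9 and 139 FPKM in P-SSCs and 763, 854 and 894 FPKM in grafts. Its order of groups was that of *Pfkl*, with a fall of 2.43 from BM-MSCs to P-SSCs (adjusted p = 0.00116 from limma) and a rise of 3.68 to the grafts (adjusted p = 0.000110 from limma). *Hmox1*, heme oxygenase, rose by 2.16 from P-SSCs to grafts (SE 0.20, adjusted p = 5.70e-05 from limma), with means of 48.6 ± 6.66 and 220.0 ± 25.9 FPKM (SD, n = 3 each). *P4ha1*, a collagen prolyl hydroxylase named after its values were seen, rose by 1.41 (adjusted p = 0.00166 from limma). *Bnip3l*, a mitophagy receptor, was not called, with a log2 difference of -0.18 (95% interval -0.55 to 0.18, adjusted p = 0.431 from limma) between grafts and P-SSCs.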

How the data were processed

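The authors purified polyadenylated RNA of sorted cells, mapped reads to GRCm38 with STAR 2.6.1d and, per the submitters' processing notes, counted with featureCounts 1.5.0-p3. The deposited values are FPKM, and no counts were used. The annotation release and whether the libraries were directional are not given in the sources used here. The authors compared groups with DESeq2, and their comparisons were not used. Library totals were recovered from genes with 1 annotated transcript, where 99.8% of 4837 values above 0 were whole fragments within 0.05. These totals set the depth.

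FPKM were changed to log2(FPKM + 1), and groups were compared with limma 3.58.1 in R 4.3.3, in 1 fit of 9 libraries (eBayes with trend), over 1948 genes. A call needs a Benjamini-Hochberg adjusted p below 0.05. Folds are ratios of mean FPKM. The log2 changes include the pseudocount of 1 and understate those of low genes. The fit was tested on simulated data.

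The genes and lists were chosen with earlier results of these data known. Named were the 4 genes, list members near glycolysis that passed the filter, at most 3 of each other list by mean FPKM, and the 3 genes most like each. Alternatives changed the pseudocount, filter, scaling, libraries fitted, replicate block and trend, and left out each library.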

Additional observations from a re-analysis of the deposited data

How the results depend on the processing

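Over 19 other settings per result, the call of *Pfkl* at steady state and the calls of all 4 genes in both graft comparisons kept direction and stayed under 0.05. Adjusted p from limma was at most 0.000399 for *Pfkl* at steady state, 0.000174 for graft against steady-state P-SSCs and 0.0169 for graft P-SSCs against BM-MSCs, the last for *Pfkl*. The differences that were not called between P-SSCs and BM-MSCs changed sign or call. For *Slc2a1* the difference was 0.029 with quantile normalization, 0.046 with the same sum of FPKM per library, 0.033 without BM-MSC replicate 1 and 0.084 without P-SSC replicate 3, in a range of -0.21 to 0.084 with 1 library left out. For *Pgk1* it was -0.047 without BM-MSC replicate 1 and -0.024 without P-SSC replicate 2, in a range of -0.047 to 0.097. *Pgam1* was called without P-SSC replicate 3, at 0.43, in a range of 0.28 to 0.43 with 1 library left out and up to 0.50 in the other settings, with adjusted p from limma of 0.0408 to 0.264 over all settings. The cause was not tested. Calls of other genes that were lost were those between P-SSCs and BM-MSCs of *Txnip* in 6 settings, *Me2* in 4, *Dera* in 13 and *Pgm3* in 1, that of *Rbks* between graft and steady-state P-SSCs in 10, and those between graft P-SSCs and BM-MSCs of *Me2* in 5, *Rbks* in 5, *Idh2* in 7, *Bnip3l* in 4 and *Angptl4* in 7. With 1 library left out, the steady-state call was lost for *Txnip* without BM-MSC replicate 2 or 3 or P-SSC replicate 1 or 3 (adjusted p from limma 0.0638 to 0.113), for *Me2* without BM-MSC replicate 3 or P-SSC replicate 1 or 2 (0.0566 to 0.0700) and for *Dera* without BM-MSC replicate 2 or 3, P-SSC replicate 1 or 3 or any graft library (0.0588 to 0.121). The call of *Rbks* between graft and steady-state P-SSCs was lost without BM-MSC replicate 1, P-SSC replicate 1 or 2 or any graft library (0.0634 to 0.180). Between graft P-SSCs and BM-MSCs, any graft library decided the calls of *Me2*, *Idh2*, *Bnip3l* and *Angptl4*, and so did BM-MSC replicates 1 and 2 for *Me2*, 2 and 3 for *Idh2* and each of the 3 for *Angptl4* (0.0507 to 0.0861 for these genes). *Rbks* lost that call without BM-MSC replicate 1 or 3 or graft replicate 1 or 2 (0.0784 to 0.138).

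With 1 library left out, the genes called ranged from 399 to 593 for P-SSCs against BM-MSCs, from 450 to 892 for graft against steady-state P-SSCs and from 555 to 1038 for graft P-SSCs against BM-MSCs. The other settings gave 324 to 474, 522 to 667 and 604 to 1068. Libraries with the same replicate number were not treated as paired. Across genes, their deviations from the group means correlated at -0.035 to 0.13, -0.43 to -0.087 and -0.047 to 0.042 in the 3 comparisons. Deviations from a mean of 3 libraries are tied to each other, so these values cannot show whether groups shared mice. The replicate block follows the replicate number, which need not match shared mice. With a replicate block, 441, 621 and 755 genes were called in place of 472, 665 and 816, and no call of the 4 genes changed.

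A single gene compared over 3 libraries a group cannot reach an exact p below 0.1, so each p rests on the spread that limma shares between genes. Genes left out of the table were not analysed here, among them most of glycolysis.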
